A study of Mus musculus with 24 samples.

Results

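Major urinary proteins are small lipocalins, barrel-shaped carriers that hold volatile ligands, which the mouse liver secretes into blood and the kidney passes into urine, where they bind and slowly release pheromones. The 10 genes described here are Mup1, Mup2, Mup7, Mup8, Mup9, Mup12, Mup13, Mup15, Mup17 and Mup19, 10 of the 24532 genes in the table of expression values and 10 of its 21 genes whose symbol is Mup and a number. They were chosen by their FPKM in LKO against Ctrl liver, so those liver values are a description, given without a test, and the other 3 tissues are where the family could be tested. Hepatic Mup transcription is known to depend on pulses of growth hormone through the kinase JAK2 and STAT5, on thyroid hormone, glucocorticoid and androgen, and on liver transcription factors, and it is higher in male than in female mice. Apart from the liver, some Mup genes are expressed in mammary, lacrimal and salivary glands.

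RNA was sequenced from C57BL/6 mice aged 8 weeks on chow, from liver, iWAT (inguinal white adipose tissue), GM (gastrocnemius muscle) and hypothalamus, with 3 Ctrl and 3 LKO libraries per tissue and 24 in all. Ctrl mice were Crif1flox/flox and LKO mice Alb-Cre;Crif1flox/flox, so both carried the floxed Crif1 gene, and the albumin promoter drives the Cre recombinase in hepatocytes of the LKO mice. CRIF1, whose gene is listed under the symbol Gadd45gip1, is a protein of the mitochondrial ribosome needed for making the respiratory chain. No label links a mouse across tissues or gives its sex, and where libraries were not from separate animals the p-values measure technical spread only. Values are FPKM, in which the fragments of a gene are divided by its length and by the size of the library, and the inferred depth was 4.45 to 8.09 gigabases per library. Gadd45gip1 read 14.6, 12.5 and 13.6 FPKM in Ctrl liver against 5.4, 2 and 2.51 in LKO liver (limma log2 difference -1.84 ± 0.27 SE, adjusted p = 0.00357), and the groups overlapped in the other 3 tissues.

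The genes form a single cluster on chromosome 4 between 59956806 and 62150841 (mm10), with Mup4 at its start and Mup21 at its end, and all 10 listed genes lie on the minus strand. Their transcripts are near copies of one another. Over the 45 pairs of listed genes, the longest coding transcripts (GENCODE M21) were 98.27% to 99.68% identical, with a median of 99.03%. Mup1 and Mup12 were the most alike pair, with 3 mismatches over 925 aligned bases. Genes outside the list fell into near copies, such as Mup10 (median 98.7% identical to the listed genes) and Mup14 (99.24%), and distant ones, such as Mup20 (90.4%), which encodes the male pheromone darcin, and Mup3 (85.42%). The last 120 bases before the annotated start (RefSeq, GRCm38.p6) are shown for Mup15 and Mup17, which were listed, for Mup10, a near copy that was not, and for the distant Mup3, with the letters TATATAAG in capitals.
Mup15, chr4:61439705-61439824, minus strand: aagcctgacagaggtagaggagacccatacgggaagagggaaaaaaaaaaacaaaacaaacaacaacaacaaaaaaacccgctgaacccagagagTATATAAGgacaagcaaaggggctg
Mup17, chr4:61595833-61595952, minus strand: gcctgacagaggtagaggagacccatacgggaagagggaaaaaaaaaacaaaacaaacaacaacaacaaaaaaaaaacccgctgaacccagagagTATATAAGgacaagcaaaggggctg
Mup10, chr4:60582156-60582275, minus strand: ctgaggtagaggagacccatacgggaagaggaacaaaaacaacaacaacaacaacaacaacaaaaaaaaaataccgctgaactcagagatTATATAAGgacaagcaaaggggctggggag
Mup3, chr4:62087318-62087437, minus strand: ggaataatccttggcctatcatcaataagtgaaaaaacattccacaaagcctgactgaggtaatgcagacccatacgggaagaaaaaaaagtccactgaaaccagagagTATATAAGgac

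TATATAAG, a variant of the TATA box at which transcription starts are placed, was chosen after these windows were seen. Searched on both strands of the 250 bases before the start, it was present in 5 of the 6 listed genes with a promoter in the table (Mup2, Mup9, Mup15, Mup17 and Mup19), in 4 of the 8 other Mup promoters, and in 0.992% of 27025 promoters. Its first base lay 25 bases before the start in Mup15 and Mup17 and 31 in Mup9 and Mup19. In Mup10 it lay 30 bases before the annotated start, but in Mup3 11 and in Mup21 8, so the position was not the same in all. The window of Mup7 begins from a start annotated further upstream and lacked these letters. The letters of binding motifs for STAT5 (TTCNNNGAA, in 7.18% of all promoters), C/EBP (TTGCNNCAA, 1.78%), HNF4A (CAAAGTCCA, 0.381%) and the glucocorticoid receptor (ACANNNTGT, 5.91%), and of the ATF4 composite site (TGATGCAA, 0.818%), were in none of the 6 listed windows, which says only that these letters are not there. TATAAA, in 13.0% of all promoters, was found in Mup4 and Mup6 among the Mup genes and in none of the listed ones.

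Such copies can share reads, which bears on every single-gene value below. Cut into words of 100 bases, the read length, between 0% and 40.6% of the words of a listed transcript were found in no other gene. Mup19 had none of its own, Mup2 and Mup15 had 2.7% each, and Mup17 had the most. In contrast, 97.1% of the words of Mup3 and 61.2% of those of Mup20 were their own. The annotation behind the files also spread Mup signal over symbols outside the family name. Gm2083 was listed at 11 places in the cluster, most often between 61515593 and 61782223, a stretch that contains Mup16, Mup17, Mup18 and Mup19, and Gm21320 lay between 60817586 and 60821590, where GENCODE places Mup22. Mup2 and Mup15 were listed at several places in 19 and 18 of the 24 libraries. The sum of the 10 genes is therefore given beside the single genes throughout.

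The listed genes were far lower in the LKO livers than in the Ctrl livers. Summed, they read 23549, 22724 and 34992 FPKM in the Ctrl livers against 903, 1377 and 1077 in the LKO livers, so the mean was 24.2-fold lower in LKO. The highest LKO library lay far under the lowest Ctrl library. The difference of the sum on the log2(FPKM + 1) scale was -4.59, against an SD of 0.35 among Ctrl and 0.31 among LKO livers. In TPM, which is scaled to a fixed total per library, the 10 genes took 4.25%, 4.18% and 6.31% of the total in Ctrl but 0.18%, 0.273% and 0.215% in LKO. Rescaling TPM over the genes that are no Mup, so that the Mup level does not enter the total, left the difference at -4.58. All 10 genes had every LKO library below every Ctrl library, which held for 8.1% of the 10956 genes tested in liver, and nothing is read from that count because the list was made from this contrast. Fewer cells of a type and less RNA per cell cannot be told apart in bulk tissue.

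**Figure D1:**
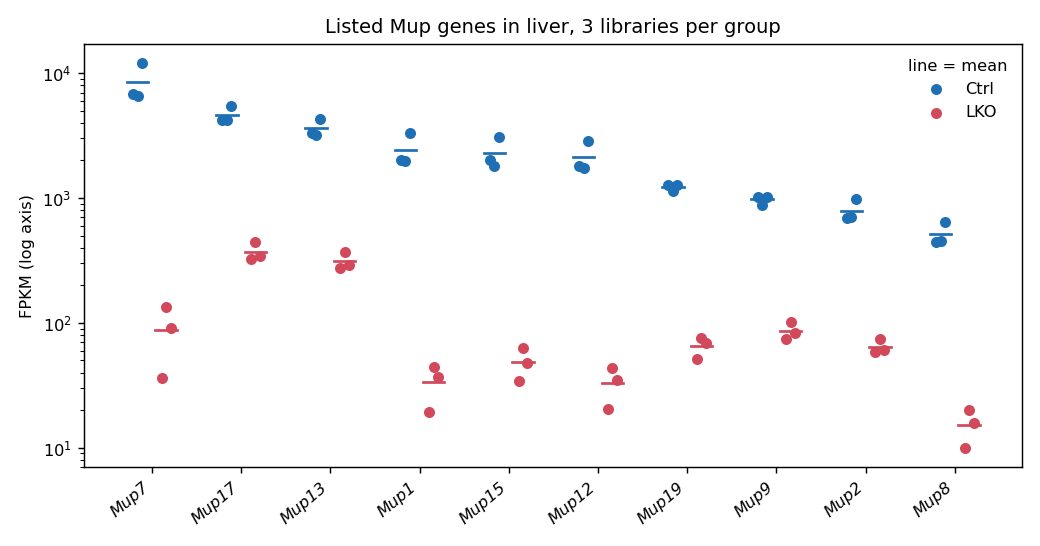
FPKM of each listed Mup gene in liver (vertical log axis), with 1 point per library, 3 Ctrl (blue) and 3 LKO (red), and a line at the group mean, genes ordered by their Ctrl mean. Ctrl and LKO points do not overlap for any of the 10 genes, and the gap is widest for Mup7, whose Ctrl points reach 12014.

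The listed genes fell into a group with a large difference and one with a smaller difference. Mup7, the most abundant listed gene (chromosome 4, 60066469 to 60070475), read 6768, 6610 and 12014 FPKM in Ctrl liver against 36, 135 and 90.7 in LKO liver, a 97.0-fold lower mean. Mup1 read 2001, 1980 and 3305 against 19.4, 44.6 and 36.9 (72.2-fold lower). Mup12, its nearest copy, read 1813, 1724 and 2885 against 20.3, 43.2 and 34.7 (65.4-fold lower). In each of these genes Ctrl replicate 3 was the highest Ctrl library and LKO replicate 1 the lowest LKO library. Mup15 (2295 ± 681 against 48.4 ± 14.4 FPKM, mean ± SD, n = 3 per group) was 47.4-fold lower. Mup8, the least abundant listed gene in Ctrl liver (512 ± 111 against 15.3 ± 5.11), was 33.6-fold lower.

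The other five differed less, by 11.3-fold to 18.8-fold, so no listed gene lay between 18.8-fold and 33.6-fold. Mup17 read 4179, 4235 and 5504 FPKM in Ctrl and 323, 447 and 346 in LKO livers, a 12.5-fold lower mean. Mup13 read 3337, 3215 and 4294 against 277, 371 and 292 (11.5-fold lower). Mup17 and Mup13 had the highest LKO levels of the listed genes, above that of Mup7, which was higher than both in Ctrl. Mup19 (1228 ± 86 against 65.4 ± 13.1), Mup9 (973 ± 86.2 against 86.3 ± 13.7) and Mup2 (792 ± 168 against 64.6 ± 8.48) completed the group. The share of words found in no other gene spanned 2.7% to 34% in the group with the larger differences and 0% to 40.6% in the other, so it did not separate them.

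Mup genes outside the list differed less in most cases but in the same direction. Of these 11 genes, 10 had every LKO liver below every Ctrl liver and 1, Mup16, had every LKO liver above, beside 8.1% and 53.0% of all genes tested. Mup3, at 9787, 10273 and 10096 FPKM the Mup transcript with the highest Ctrl mean, read 1725, 1515 and 1204 in LKO liver (6.79-fold lower). Mup20 read 8785, 8544 and 9448 in Ctrl and 4599, 4954 and 3548 in LKO livers, only 2.04-fold lower. Mup10 (3416 ± 206 against 706 ± 87.8, 4.84-fold) and Mup21 (843 ± 89.1 against 95.5 ± 38.2, 8.83-fold) were lower as well, while Mup14 (3966 ± 1192 against 208 ± 60.7) was 19.1-fold lower and so within the range of the listed genes. Mup11 and Mup18 were low and uneven in Ctrl liver, at 4.35, 22.5 and 32.9 and at 2.55, 35.1 and 34.3 FPKM, and stayed under 3 FPKM in LKO. Mup4, Mup5 and Mup6 had Ctrl means of 0.461, 2.5 and 8.08 FPKM, and LKO means of 0.0395, 0.242 and 2.11.

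Mup16 went the other way at a low level, with 4.17, 4.68 and 7.75 FPKM in Ctrl and 14.2, 15.2 and 10.1 in LKO livers. Of its words 19.9% were found in no other gene and 71.1% were shared with Mup19. The part of shared reads in its value was not tested. Gm2083, at 7955, 7893 and 9243 FPKM in Ctrl and 962, 1302 and 1092 in LKO livers, was 7.48-fold lower. Gm21320 overlapped between the groups, with 370, 32.3 and 26 in Ctrl and 91.3, 16.2 and 77.1 in LKO. With all 21 Mup genes summed, the liver difference was -2.76 on the log2 scale (54351 ± 8640 FPKM in Ctrl and 7995 ± 1139 in LKO), and with the pair of Gm genes added it was -2.77.

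**Figure D2:**
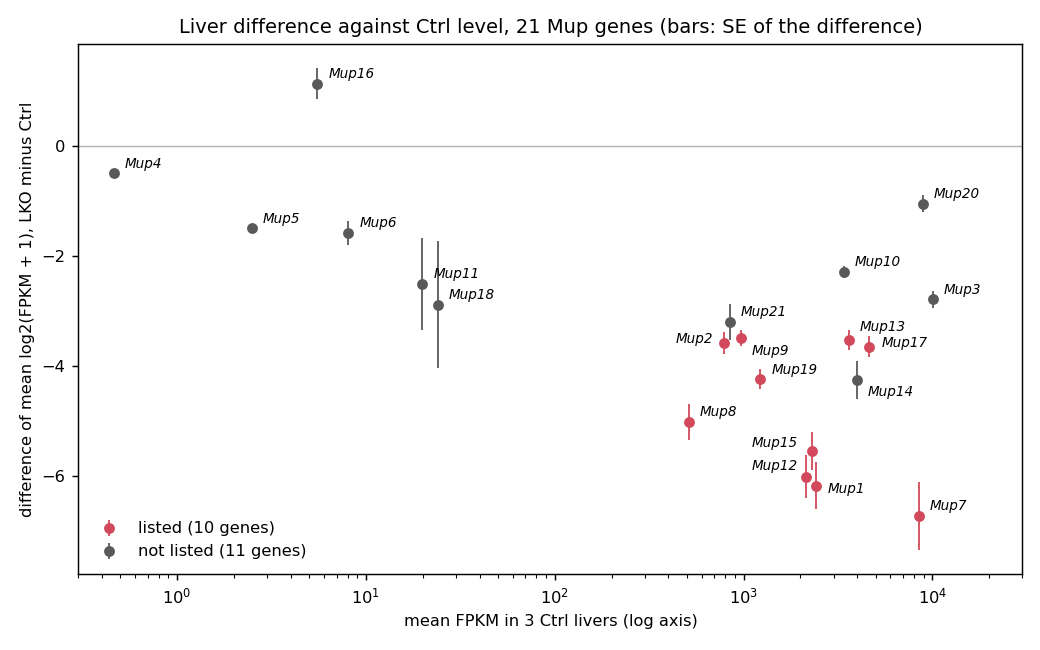
Difference of mean log2(FPKM + 1) between LKO and Ctrl liver (vertical axis, bars give the SE of the difference) against the Ctrl mean (horizontal log axis) for the 21 Mup genes, with the 10 listed genes in red and the 11 others in grey. The listed genes lie between -6.72 and -3.49, Mup14 lies among them, Mup20 lies at -1.04 with a Ctrl level as high as that of Mup7, and Mup16 alone is above 0.

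The mix of Mup transcripts in liver therefore differed between the groups. The 10 listed genes made up 47.9%, 45.8% and 54.4% of the FPKM of all 21 Mup genes in Ctrl livers and 11%, 15.3% and 15.9% in LKO livers. Mup20 alone went from 16.6% ± 1.69 (SD, n = 3) in Ctrl to 54.5% ± 1.93 in LKO livers and became the leading Mup transcript. Mup3 held 18.8% ± 2.7 and 18.5% ± 2.25, while Mup7 went from 15.3% ± 2.97 to 1.09% ± 0.571. These shares rest on the contrast that made the list and were not tested.

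**Figure D3:**
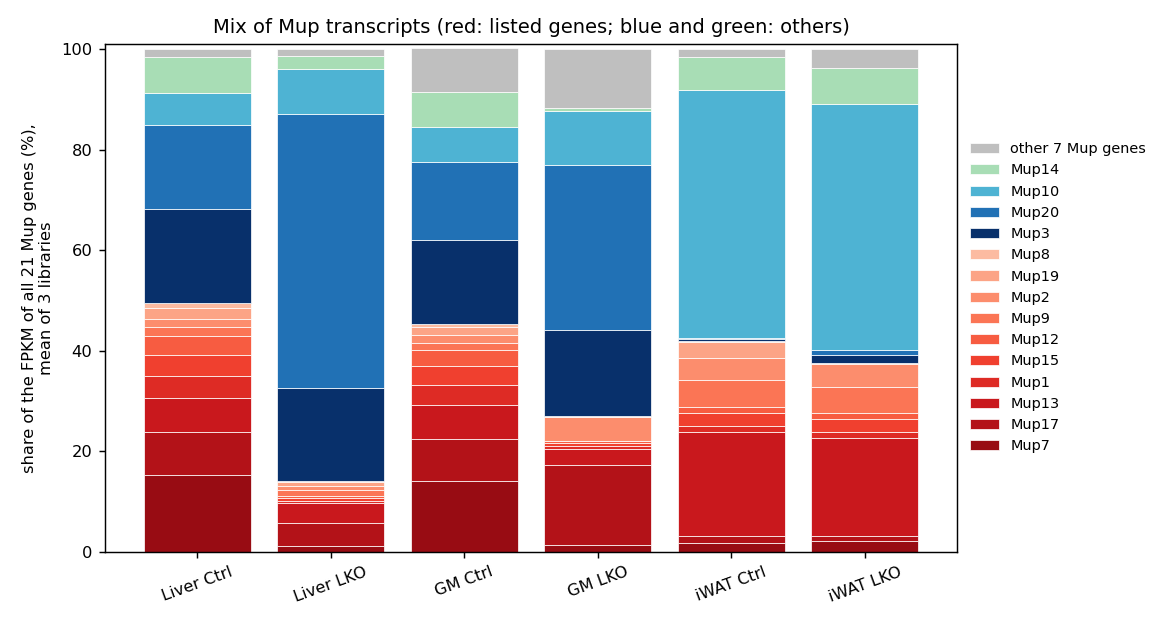
Share of each Mup gene in the summed FPKM of the 21 Mup genes (vertical axis, percent, mean of 3 libraries) in liver, GM and iWAT of Ctrl and LKO mice, with listed genes in red and others in blue, green and grey. Mup20 takes 54.5% in LKO liver, GM Ctrl has nearly the mix of liver Ctrl, and Mup10 takes 49.4% in iWAT Ctrl and 48.9% in iWAT LKO.

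Transcripts of other proteins that hepatocytes secrete differed less between the groups. Albumin, the most abundant plasma protein, read 39800, 42770 and 39763 FPKM in Ctrl and 53194, 42859 and 33127 in LKO livers, and the groups overlapped (limma log2 difference 0.05 ± 0.28 SE, adjusted p = 0.886). The Mup sum per unit of Alb was 0.592, 0.531 and 0.88 in Ctrl against 0.017, 0.0321 and 0.0325 in LKO. Of 29 plasma proteins that hepatocytes secrete, all tested, 8 fell and 2 rose, with a median log2 difference of -0.34 beside 0.33 for all genes tested, of which 3.5% were called lower and 23.9% higher. Higher calls were 87.2% of all liver calls here and 51.3% under median-ratio scaling, under which the list gave 11 lower and 0 higher. The serpin Serpina3k, a protease inhibitor, fell most (8766 ± 596 to 3086 ± 1363 FPKM, log2 difference -1.61, adjusted p = 0.0117). Serpina1d (-1.12, adjusted p = 0.017), Serpina1c (-1.11, adjusted p = 0.0187) and the lipoprotein gene Apoa2 (-0.94, adjusted p = 0.00968) followed. Ahsg, which encodes fetuin A (0.68, adjusted p = 0.023), and Hpx, the heme carrier hemopexin (0.67, adjusted p = 0.0348), rose. Without LKO replicate 1 the list gave 15 lower and 1 higher, without Ctrl replicate 2 or LKO replicate 2 it gave 1 lower and none higher, without Ctrl replicate 1 or 3 it gave 2 lower and none higher, and without LKO replicate 3 it gave 4 lower and 2 higher.

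Markers of several other liver cell types were higher in the LKO livers. All 8 Kupffer cell and macrophage markers, all 6 of cholangiocytes (bile duct cells) and all 7 of stellate cells and fibroblasts had every LKO library above every Ctrl library, where 53.0% of all tested genes did. Krt7, Epcam and Cldn7 lay under 1 FPKM in every Ctrl liver. They passed the filter behind that share only through the LKO libraries, where they were high. From cell sorting, the paper proposes fewer resident Kupffer cells and more infiltrated monocytes in LKO liver. The macrophage list does not tell these cells apart. The summed macrophage markers ranged from 157 to 167 FPKM in Ctrl and from 369 to 567 in LKO livers, the cholangiocyte markers from 30.9 to 32.2 and from 42.6 to 90.2, and the stellate and fibroblast markers from 70.5 to 77.4 and from 189 to 212. Of the 6 endothelial markers, 3 were higher without overlap, near the 53.0% of all tested genes, so nothing is read from that count. Their sum ranged from 79 to 80.2 in Ctrl and from 89.8 to 149 in LKO livers. These marker values are FPKM without median-ratio scaling. The hepatocyte markers ranged from 81376 to 85713 in Ctrl and from 55616 to 88442 in LKO, 4 of 10 lower without overlap, beside 8.1% of all genes tested. The part of these cells in the Mup values was not tested.

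Other lipocalins, the protein family to which the Mup genes belong, changed in both directions in liver. Of the 8 tested among 14 in the table, 2 fell and 1 rose, with a median of -0.11, beside 3.5% called lower, 23.9% called higher and a median of 0.33 over all genes. C8g, a subunit of the complement attack complex, fell from 296 ± 12.8 to 174 ± 42.1 FPKM (log2 difference -0.79, adjusted p = 0.0154), and Ptgds, a prostaglandin D synthase, from 1.98 ± 0.184 to 0.799 ± 0.184 (-0.73, adjusted p = 0.00461). Every LKO value of Ptgds lay under 1 FPKM, so it passed the filter only through the Ctrl libraries, where it was high. Its test and its place among the 2 that fell are conditional on that. Lcn2, which binds bacterial iron carriers and is known to increase in inflammation, rose from 2.86, 2.59 and 2.67 to 15.8, 41.5 and 32.2 FPKM (2.95 ± 0.31 SE, adjusted p = 0.00142).

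Of the receptors in the list of Mup regulators that could be tested, none passed the call of an adjusted p under 0.05 and a 1.5-fold change. The growth hormone receptor Ghr read 182, 182 and 167 FPKM in Ctrl and 121, 117 and 125 in LKO livers, without overlap (log2 difference -0.54 ± 0.1 SE, adjusted p = 0.00689, under 1.5-fold). Thrb, the main thyroid hormone receptor of liver, read 5.58, 6.26 and 5.2 against 4.55, 3.53 and 3.29 (-0.49 ± 0.14, adjusted p = 0.0292, under 1.5-fold on the log2(FPKM + 1) scale). Thra (-0.1, adjusted p = 0.563), the glucocorticoid receptor Nr3c1 (-0.18, adjusted p = 0.251), the hepatocyte factor Hnf4a (-0.07, adjusted p = 0.711), the liver X receptor Nr1h3 (0.1, adjusted p = 0.389) and the fasting receptor Ppara (0.09, adjusted p = 0.557) did not pass.

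Of the 25 genes in the regulator list, 24 were tested, 3 fell and 1 rose, with a median of -0.08. Over all genes 3.5% were called lower and 23.9% higher, with a median of 0.33. The list also holds hormone targets, such as Dio1 and Igfals, so these counts are not counts of upstream factors. Dio1, the deiodinase that makes active thyroid hormone and is itself a thyroid hormone target, fell from 53.2, 63.2 and 63.9 to 19.6, 16.8 and 13.7 FPKM (-1.8 ± 0.15 SE, adjusted p = 0.000656). Igfals, the growth hormone target that carries IGF1 in plasma, fell from 57.6 ± 9.21 to 28.4 ± 6.13 (-1.0, adjusted p = 0.00763). Cebpa, a transcription factor of hepatocytes, fell from 124 ± 12.2 to 67.5 ± 13.2 (-0.89, adjusted p = 0.00737). Stat5a rose from 5.42 ± 0.673 to 9.84 ± 1.77 (0.75, adjusted p = 0.0106). Other growth hormone genes did not pass, among them Igf1 (-0.13 ± 0.19, adjusted p = 0.586), Socs2 (0.04 ± 0.65, adjusted p = 0.96), Cish (-0.43 ± 0.75, adjusted p = 0.645), Stat5b (0.33 ± 0.12, adjusted p = 0.0588) and Jak2 (0.34 ± 0.12, adjusted p = 0.0551). Zhx2, a transcription factor known to act on Mup genes, was at 0.27 ± 0.23 (adjusted p = 0.346). These genes were named after their values were seen. Under median-ratio scaling, which sets the median gene near no change, 7 genes of the list were called lower and none higher, with Ghr, Thrb and Nr3c1 among them and Stat5a no longer called.

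Because Mup transcription is sex-biased, transcripts with a known bias were set beside it. Of 20 male-biased transcripts, 18 were tested, 14 fell and none rose, with a median of -1.48, beside 3.5% lower and 23.9% higher of all genes. Hsd3b5, a steroid enzyme, fell from 191, 185 and 213 to 1.81, 4.39 and 1.62 FPKM (-5.85 ± 0.26 SE, adjusted p = 0.000136), near the -6.01 of Mup12. Elovl3, a fatty acid elongase (-3.92, adjusted p = 0.00103), Cyp7b1, an oxysterol hydroxylase (-2.79, adjusted p = 0.00549), and Selenbp2, a selenium-binding protein (-2.78, adjusted p = 0.00345), followed. Of 20 female-biased transcripts, 10 were tested, 5 rose and 2 fell, with a median of 1.09, beside the same 23.9% higher and a median of 0.33 for all genes. Under median-ratio scaling, which brought the median of all genes to -0.04, 4 female-biased transcripts were called higher and 2 lower, with a median of 0.73. Cyp2a4, a steroid hydroxylase, rose from 5.61, 3.91 and 2.5 to 91, 94.2 and 214 FPKM (4.67 ± 0.37, adjusted p = 0.00053). Cyp2b9, another cytochrome P450 (3.53, adjusted p = 0.00187), the thioesterase Acot3 (1.37, adjusted p = 0.00296) and the peroxisomal transporter Abcd2 (1.15, adjusted p = 0.0428) rose as well, the last no longer called without any 1 of the Ctrl replicates or LKO replicate 2, with no filter or under median-ratio scaling (adjusted p from 0.00519 to 0.181 over its alternatives). Cyp2b9 read 0.975, 0.058 and 0.0385 FPKM in Ctrl, so it passed the filter only through the LKO libraries, where it was high. Its test and its place among the 5 that rose are conditional on that. Acot3, at 0.605, 1.32 and 0.506 in Ctrl, would not have passed without its LKO libraries either. Cyp2c69 (-1.81, adjusted p = 0.00467) and Cyp2c40 (-1.65, adjusted p = 0.00689), cytochromes P450 of a clustered family whose reads may be shared, fell.

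**Figure D4:**
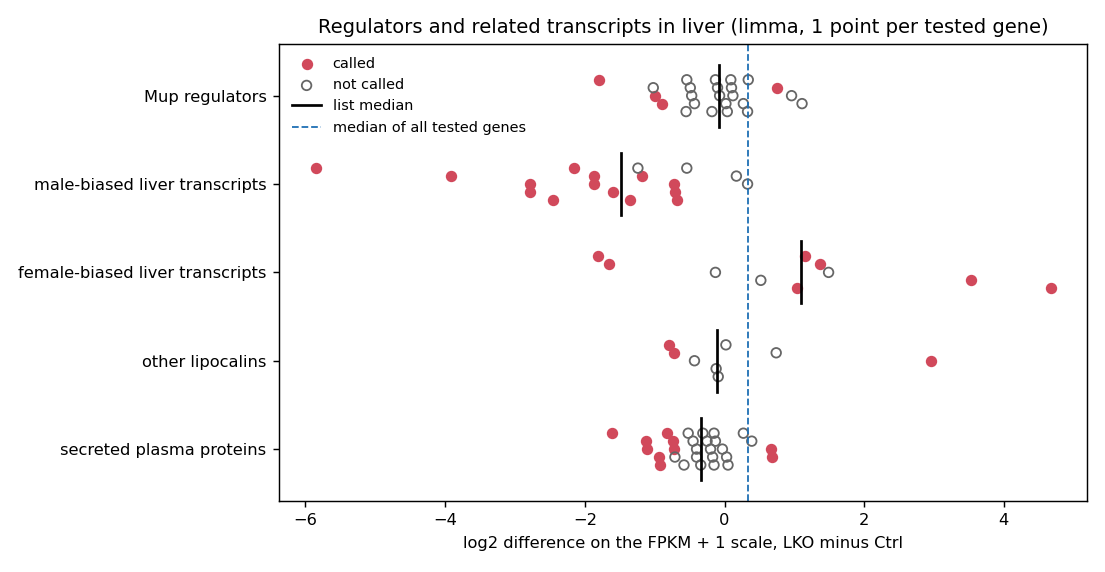
Log2 difference between LKO and Ctrl liver on the FPKM + 1 scale (horizontal axis, limma) for each tested gene of 5 lists, filled where called, with a black line at the list median and a dashed line at 0.33, the median of all genes tested. The male-biased transcripts lie mostly left of 0 with a median of -1.48, the female-biased mostly right with a median of 1.09, and the regulator list sits around -0.08.

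The genes whose levels were most like the Mup sum included Gm2083 of the same cluster and 2 male-biased transcripts. Over the 24 libraries, the highest Pearson correlations with the summed genes on the log2(FPKM + 1) scale, among 15829 genes that are no Mup, were those of Gm2083 (0.9659), Nudt7 (0.9491), a peroxisomal coenzyme A hydrolase of the male-biased list, the plasma lactonase Pon1 (0.9439), Iigp1, an interferon-induced GTPase (0.932), and the sugar reductase Dcxr (0.9313). These libraries differ mainly by tissue. Within the 6 livers the highest were Gm2083 (0.9993), the laminin chain Lama3 (0.9974), the long noncoding RNA Lppos (0.997), Magix (0.9964) and Hsd3b5 (0.996), and 6 points in 2 groups carry little more than the group difference.

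Outside the liver the Mup level was far lower, and its order in Ctrl mice was liver, iWAT, GM and hypothalamus. The sum of the 10 genes had a median of 23549 FPKM in Ctrl liver, 135 FPKM in iWAT and 67.1 FPKM in GM, and was listed at 0 in the median hypothalamus library. Liver and iWAT did not overlap, which is a description, since the liver values chose the genes. The iWAT (lowest 114) and GM (highest 105) libraries did not overlap either (exact two-sided permutation p = 0.1, unadjusted, the smallest that 3 libraries against 3 can give). GM and hypothalamus overlapped (exact permutation p = 0.2, unadjusted), since GM Ctrl replicate 2 read 7.45 and hypothalamus Ctrl replicate 3 read 22.9. The libraries carried the markers of their tissue, with summed adipocyte markers of 42287 to 51886 FPKM in iWAT, muscle markers of 112528 to 127596 in GM and neuron markers of 2694 to 3337 in hypothalamus.

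In iWAT the Mup sum was lower in LKO mice in every library, although the albumin values were higher. The sum read 135, 114 and 359 FPKM in Ctrl and 76.3, 83.3 and 37.4 in LKO mice, a 3.09-fold lower mean. No LKO library reached the lowest Ctrl library, and Ctrl replicate 3 stood far above the others. The difference on the log2(FPKM + 1) scale was -1.5 (exact permutation p = 0.1, the smallest possible, 3 of 3 LKO libraries below every Ctrl library), and -0.99 without Ctrl replicate 3. Of the 10 genes, 9 had non-overlapping groups with LKO lower, and 8 of these were among the 9 that passed the filter. The share over all genes tested was 11.0%. Mup17 was the exception, at 1.59, 5.89 and 9 in Ctrl and 5.11, 0.225 and 0.264 in LKO. Of the 9 genes that passed the filter, Mup19 did so only through its Ctrl values. Of the other 8, 7 had an unadjusted limma p under 0.05, where 7.57% of the 12288 genes tested in iWAT did so with LKO lower, and none was called after adjustment. No gene at all was called by limma in iWAT, in either direction (0.0%), while 15.0% had an unadjusted p under 0.05. The listed genes share reads, so these 7 are not separate observations.

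Mup13, the most abundant listed gene of iWAT, read 68, 54.8 and 182 FPKM in Ctrl and 39.5, 43.3 and 19.3 in LKO mice (log2 difference -1.42 ± 0.5 SE, adjusted p = 0.261). Mup9 (26.6 ± 17.9 against 9.26 ± 3.94), Mup2 (21 ± 14.3 against 7.96 ± 3.57) and Mup15 (12.3 ± 8.51 against 4.43 ± 1.65) followed the same order of libraries. The liver's leading member Mup7 was low in iWAT, at 5.9, 4.89 and 14.9 in Ctrl and 2.64, 4.86 and 2.98 in LKO mice (-0.98, adjusted p = 0.31). Mup1 (5.39 ± 3.4 against 1.94 ± 0.471) and Mup12 (5.93 ± 3.82 against 2.08 ± 0.771) were lower still, and Mup8 (0.851 ± 0.434 against 0.195 ± 0.188) did not pass the filter. Mup19 had the largest difference of the listed genes, at 11.2, 8.38 and 25.4 in Ctrl and 0.272, 0.282 and 0.543 in LKO mice (-3.41). All 3 LKO values lay under 1 FPKM, so Mup19 passed the filter only through the Ctrl libraries, where it was high, and its test is conditional on that. With no filter its adjusted p by limma was 0.133, with the filter 0.0734, and over the alternatives it ranged from 0.039 to 0.247, under the threshold without Ctrl replicate 3, without LKO replicate 1 and under median-ratio scaling. Mup19 is the listed gene with no word of its own, and Mup9, with which it shares most words, differed by -1.33.

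Mup10 and Mup13 made up most of the FPKM of the 21 Mup genes in iWAT. Gm2083 of the cluster, which is outside that sum, read more than Mup10 in every library. It was at 246, 205 and 643 FPKM in Ctrl and 155, 174 and 74.9 in LKO iWAT. Mup10, at 160, 132 and 429 FPKM in Ctrl and 103, 108 and 46.9 in LKO mice, made up 49.4% ± 0.405 of the Mup sum in Ctrl and 48.9% ± 3.72 in LKO iWAT, and Mup13 made up 20.8% ± 0.268 and 19.5% ± 0.942. Mup3 and Mup20, the leading Mup transcripts of liver outside the list, stayed under 3.4 FPKM in every iWAT library. Across the 21 Mup genes, the mean shares in iWAT Ctrl and liver Ctrl had a Spearman rho of 0.51 and a Pearson r of 0.09, as a description across genes that share reads. The Mup sum per unit of Alb was 5.66, 8.7 and 28 in Ctrl and 2.17, 1.78 and 0.759 in LKO iWAT, in every library above the highest liver value of 0.88 except LKO replicate 3.

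Alb itself read 23.8, 13.1 and 12.8 FPKM in Ctrl and 35.2, 46.9 and 49.2 in LKO iWAT (1.39 ± 0.25 SE, adjusted p = 0.103, not called). Of the 10 hepatocyte markers, 3 were higher without overlap, as were 9.76% of all genes tested, and none lower, and their sum, made up mostly of Trf, a gene that adipose tissue also expresses, ranged from 1644 to 1877 in Ctrl and from 1620 to 1855 in LKO. Mammary epithelium markers, which could enter an inguinal fat pad, summed to 0.0415 to 0.396 FPKM in Ctrl and 0.23 to 9.26 in LKO iWAT, with Wap listed at 0 in all 6 libraries. Ctrl replicate 3, which had the highest Mup sum, had a mammary sum of 0.396, and the highest mammary sum, 9.26, was that of LKO replicate 2. The endothelial markers summed to 119 to 169 FPKM in Ctrl and 197 to 250 in LKO iWAT, 3 of 6 higher without overlap. Of the 8 adipocyte markers, 3 were higher and 1, the leptin gene Lep, was lower without overlap, the latter beside 11.0% of all genes tested, and the sums overlapped. The part of these cells in the iWAT values was not tested.

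**Figure D5:**
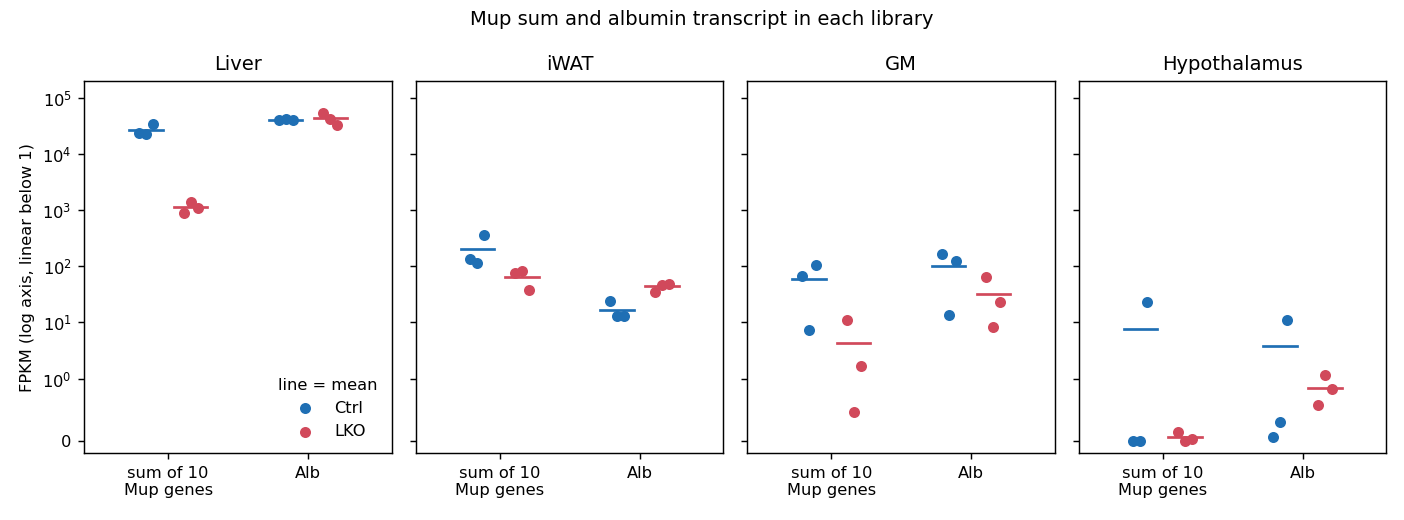
Sum of the 10 listed Mup genes and level of Alb in every library of the 4 tissues (vertical axis in FPKM, log above 1 and linear below), with 3 Ctrl points in blue, 3 LKO points in red and a line at each group mean. The Mup sum is lower in LKO without overlap in liver and iWAT, while Alb overlaps in liver and is higher in LKO iWAT. In GM both vary together, and in hypothalamus Ctrl replicate 3 alone carries the signal.

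In GM the Mup sum was uneven, and so were hepatocyte transcripts. The sum read 67.1, 7.45 and 105 FPKM in Ctrl and 11, 0.463 and 1.66 in LKO mice. The groups overlapped, since LKO replicate 1 lay above Ctrl replicate 2. The log2 difference was -3.45 (exact permutation p = 0.2, 2 of 3 LKO libraries below every Ctrl library), -4.56 without Ctrl replicate 2, -2.74 without Ctrl replicate 3, -4.32 without LKO replicate 1 and -2.8 without LKO replicate 2. Of the 10 genes, 7 had every LKO library below every Ctrl library, but only 4 passed the filter, of which 2 had no overlap, where 7.2% of all genes tested did. Both, Mup7 and Mup13, had every LKO value under 1 FPKM and passed only through the Ctrl libraries, where they were high, so nothing is read from this count or from their p. Mup7 read 25.5, 1.45 and 36.3 in Ctrl and 0.974, 0 and 0 in LKO (-3.42 ± 0.95 SE, adjusted p = 0.561), and Mup13 read 11.2, 1.29 and 12.2 against 0.947, 0 and 0.508 (-2.32 ± 0.65, adjusted p = 0.563). These 2 had an unadjusted p under 0.05 with LKO lower, as did 3.78% of the 10877 genes tested in GM, and none of the 4 was called. Mup17 overlapped between the groups, at 2.05, 2.63 and 18.4 in Ctrl and 4.21, 0.463 and 1.15 in LKO, as did Mup2, at 2.77, 0.222 and 3.34 against 3.66, 0 and 0. Mup9 and Mup19 were listed at 0 in all 3 LKO libraries and reached 2.56 and 3.3 in Ctrl. Mup1, Mup12 and Mup15 reached 9.46, 8.11 and 9.19 in Ctrl replicate 3 and stayed at or under 0.438 in LKO, and Mup8 reached 1.88. Over all 6 libraries limma called no gene in GM (0.0%), with 6.83% at an unadjusted p under 0.05 in either direction. Without Ctrl replicate 2 the adjusted p was 0.0288 for Mup7 and 0.0456 for Mup13, and with no filter it was 0.816 for both.

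Alb in GM read 167, 13.7 and 125 FPKM in Ctrl and 65.6, 8.32 and 22.8 in LKO mice, in the same order within each group as the Mup sum but for Ctrl replicates 1 and 3. Of the 26 secreted plasma proteins of hepatocytes that were tested in GM, all 26 had a lower mean in LKO, with a median log2 difference of -1.01 beside -0.03 for all genes, and none was called. The hepatocyte markers summed to 52.1 to 371 FPKM in Ctrl and 25.5 to 159 in LKO, and none of the 10 was at 0 in all libraries. Per unit of Alb, the Mup sum was 0.401, 0.545 and 0.837 in Ctrl and 0.168, 0.0557 and 0.0729 in LKO muscle, without overlap. The Ctrl range overlapped that of Ctrl liver, 0.531 to 0.88, and the LKO values lay above those of LKO liver. The mix in GM Ctrl also followed that of liver Ctrl across the 21 genes (Spearman rho 0.91, Pearson r 0.98), with Mup3 at 16.9%, Mup20 at 15.5% and Mup7 at 14% of the sum, and in GM LKO Mup20 led with 32.8%. The part of these hepatocyte transcripts in the muscle values was not tested.

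In hypothalamus the listed genes were at or near 0 except in 1 library. Their sum was listed at 0, 0 and 22.9 FPKM in Ctrl and at 0.151, 0 and 0.0267 in LKO mice. No listed gene passed the filter, so none was tested (3 of 13828 genes, 0.0217%, were called lower there and 0.0% higher). Ctrl replicate 3 held Mup7 at 6.98, Mup1 at 3.06, Mup15 at 3.02 and Mup13 at 2.79, and all 10 listed genes were above 0 in it. The same library had Alb at 11 FPKM, where the other five had 0.0657 to 1.14, Serpina3k at 5.69 (the others up to 0.168) and Apoa1 at 9.66 (up to 1.41). The log2 difference of the sum was -1.45 (exact permutation p = 1), and without Ctrl replicate 3 it was 0.08, so its direction rested on that library. The part of the hepatocyte transcripts in it was not tested. Of the 25 genes in the regulator list, 18 were tested in iWAT, 18 in GM and 17 in hypothalamus, and limma called none of them there, nor any gene of the other 4 lists.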

How the data were processed

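Per the labels, total RNA was made into TruSeq libraries, a chemistry that does not mark strand, and sequenced from both ends. The submitters' processing notes name FastQC 0.11.5, Trimmomatic 0.32, HISAT2 2.0.5, Bowtie2 2.2.6, STAR 2.5.2b and StringTie 1.3.3b, without their roles, and the genome build mm10. The handling of reads that match several genes is not given in the sources used here. The authors deposited FPKM per gene in a joined table of 24532 genes, used as the main values, and FPKM and TPM in a table for each library, used as alternatives. For genes listed at several places these tables can differ. Depth was inferred from the ratio of coverage to FPKM in the deposited library tables. Read counts were not used, so no counting interval is given.

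For each tissue separately, log2(FPKM + 1) of 3 LKO and 3 Ctrl libraries was compared by limma 3.58.1 under R 4.3.3 (eBayes with trend), keeping genes that reached 1 FPKM in 3 or more of the 6 libraries. Fold changes of low genes are understated on this scale. P-values were adjusted by Benjamini-Hochberg over all genes tested, and a call needed an adjusted p under 0.05 and a 1.5-fold change. The script was tested on simulated data. For sums, the exact permutation test was two-sided and used log2(FPKM + 1), and its smallest p is 0.1. The members and lists were chosen with earlier results of these data known, and no liver contrast of a Mup gene was tested. Named were all Mup genes, Gadd45gip1, Alb, up to 4 called genes per list and direction, the receptors of the regulator list, and the 5 genes most like the sum. 1 of those receptors is not reported here. Transcripts (GENCODE M21) were aligned with MAFFT 7.526. Promoters came from RefSeq (GRCm38.p6, the same assembly as mm10), which held 6 of the 10 listed genes. Protein identity, planned at first, was not analysed here. Values were handled in Python 3.11.15 with numpy 2.4.6, pandas 2.3.3 and scipy 1.17.1, and plotted with matplotlib 3.10.9. Alternatives were another pseudocount, deposited TPM, the library tables, median-ratio scaling, TPM over genes that are no Mup, no filter, a replicate block, wider sums and leaving out each library.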

Additional observations from a re-analysis of the deposited data

How the results depend on the processing

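The liver sum kept its direction under every alternative, from -5.03 (median-ratio scaling) to -2.76 (all Mup genes summed, or -2.77 with the other genes of the cluster, a sum chosen after the data were seen), and from -4.75 to -4.39 when libraries were left out. Leaving out libraries gave -1.81 to -0.99 for iWAT, -4.56 to -2.74 for GM and -2.21 to 0.08 for hypothalamus, where the 0.08 is the reversal without Ctrl replicate 3 (exact permutation p = 0.6). Called members numbered 1 in iWAT under median-ratio scaling and 0 to 1 with a library left out (Mup19), and 0 to 2 in GM (Mup7 and Mup13), all genes that passed the filter only through their Ctrl values. Between Ctrl tissues, leaving out libraries gave log2 differences of 6.91 to 7.73 for liver against iWAT, 1.07 to 2.89 for iWAT against GM and 3.01 to 5.3 for GM against hypothalamus. Median-ratio scaling, which moved the median of all liver genes from 0.33 to -0.04 and the share of liver calls that were higher from 87.2% of 3006 to 51.3% of 1920, gave 7 called genes of the regulator list, against 3 to 5 with a library left out. The plasma protein list gave 4 calls with no filter and 1 to 16 with a library left out; the male-biased list gave 11 to 15, the female-biased 6 to 8 and the other lipocalins 2 to 4. Hnf4a turned to 0.06 in deposited TPM and ranged from -0.15 to 0.05 with a library left out (0.03 without Ctrl replicate 2, 0.05 without LKO replicate 3), Thra turned to 0.01 in TPM and ranged from -0.18 to 0.01 (without LKO replicate 1), and Nr1h3 turned to -0.34 and Ppara to -0.33 under median-ratio scaling. The causes were not tested. A replicate block left the differences at -4.59 in liver, -1.5 in iWAT (exact permutation p = 0.25, the smallest possible), -3.45 in GM and -1.45 in hypothalamus, and ended the call of Hpx (adjusted p = 0.0549). Libraries with the same number correlated between -0.13 and 0.35. Those that correlated best with their own number were 4 of 6 in liver, 3 of 6 in iWAT, 4 of 6 in GM and 2 of 6 in hypothalamus. No label links them, and so few libraries cannot decide whether they share more than a number. Precision was limited by 3 libraries per group and by reads that near copies share.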
